A study of Mus musculus with 2 samples.

Results

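miR-219 and miR-338 are among the microRNAs most closely tied to the making of myelin, and they were described here from 4 miRNA genes, Mir219a-1, Mir219a-2, Mir219b and Mir338. The genes were chosen by name from the 2202 miRNA genes of GENCODE M21 that were counted in small RNA of mouse hippocampus. There was 1 group of 2 libraries, both from male B6CASTF1/J mice aged 14 days, F1 hybrids of C57BL/6J and CAST/EiJ, and neither carried a treatment or mutation named in the labels. Each label numbers 3 males, with other numbers in each library, while the donor identifier is the same in both. Whether tissue of the 3 males was pooled is not given, so the SDs below give the spread of these samples alone, and part of it may be technical. Levels are counts on the strand of the gene per 1000000 counts on miRNA genes (CPM), given without division by length because each read stands for 1 small RNA.

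Oligodendrocytes form from dividing progenitors that leave the cell cycle, differentiate and wrap axons in myelin. In the mouse forebrain this gets under way in the first postnatal weeks, so an age of 14 days lies near the onset of myelination in the hippocampus. miR-219 and miR-338 rise as progenitors differentiate, and they repress transcripts that keep progenitors dividing or immature, such as those of Pdgfra, Sox6 and Hes5. Loss of miRNA processing in the mouse lineage impairs myelination, and miR-219 in part makes up for it.

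All 4 genes matched the RefSeq table of miRNA sequences (GRCm38.p6), and their hairpins were letter for letter those of the GENCODE transcripts. The mature sequences are shown because they decide which reads could be counted at which gene. Capitals mark the seed, bases 2 to 8, with which a miRNA pairs to its targets.
miR-219a-5p (Mir219a-1 and Mir219a-2): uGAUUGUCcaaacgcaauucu
miR-219a-1-3p (Mir219a-1): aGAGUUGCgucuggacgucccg
miR-219b-5p (Mir219b): aGAUGUCCagccacaauucucg
miR-219b-3p (Mir219b): aGAAUUGCguuuggacaaucagu
miR-338-3p (Mir338): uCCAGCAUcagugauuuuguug
miR-338-5p (Mir338): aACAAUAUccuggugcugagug
miR-219a-2-3p is named only. These seeds all differ from each other, and no other mature sequence in the table shares one of them. miR-219a-5p, the arm for which the family is best known in oligodendrocytes, lies whole in 2 hairpins, while each of the other 5 sequences lies in 1 miRNA hairpin on its own strand.

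The 2 hairpins that hold miR-219a-5p are shown to mark what they share, in capitals, a run of 22 nucleotides.
Mir219a-2: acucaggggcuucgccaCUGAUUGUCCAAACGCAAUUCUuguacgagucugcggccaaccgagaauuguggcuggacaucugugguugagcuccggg
Mir219a-1: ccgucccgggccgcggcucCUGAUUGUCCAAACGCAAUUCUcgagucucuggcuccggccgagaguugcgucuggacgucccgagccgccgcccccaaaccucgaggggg
A read made of those letters alone fits both genes. The deposited tables keep reads that mapped to several places in a row of their own and give them to no gene. miR-219a-5p is itself made of those letters alone, so reads of exactly that sequence are in the counts of neither gene. Counts at Mir219a-2 and Mir219a-1 are of reads that lie outside the shared run or reach past it. They are therefore not a level of miR-219a-5p, which stays uncertain. How many multimapping reads were miR-219a-5p was not measured. Of the windows of 20 nucleotides in each hairpin, 75 of 78 in Mir219a-2 and 88 of 91 in Mir219a-1 occur in no other miRNA hairpin outside the locus. In Mir338 this holds for all 79 windows. Counts are per hairpin, so the arms were not separated for any of these genes.

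Mir219a-2, Mir219a-1 and Mir338 lie on the minus strand, and each has a second annotated miRNA gene opposite to it. Mir219a-2 (ENSMUSG00000065485.1, mm10 chr2:29845631-29845727) is intergenic, 629 bp from Urm1, which lies on the plus strand. Mir219b (ENSMUSG00000105010.1, chr2:29845647-29845711, plus strand) lies wholly inside it, and miR-219b-3p is complementary to miR-219a-5p over 21 nucleotides. Mir219a-1 (ENSMUSG00000065555.1, chr17:34024983-34025092) lies 303 bp from Ring1, a Polycomb gene, and 941 bp from H2-Ke6. Mir219a-1 overlaps Gm26940, a gene annotated as long intergenic non-coding RNA, on its own strand and is faced by Mir219c. Mir338 (ENSMUSG00000065600.1, chr11:120014765-120014862) lies in an intron of Aatk, which encodes a kinase of the nervous system. It is faced by Mir3065, whose 5p arm is complementary to miR-338-3p over 21 nucleotides.

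**Figure D1:**
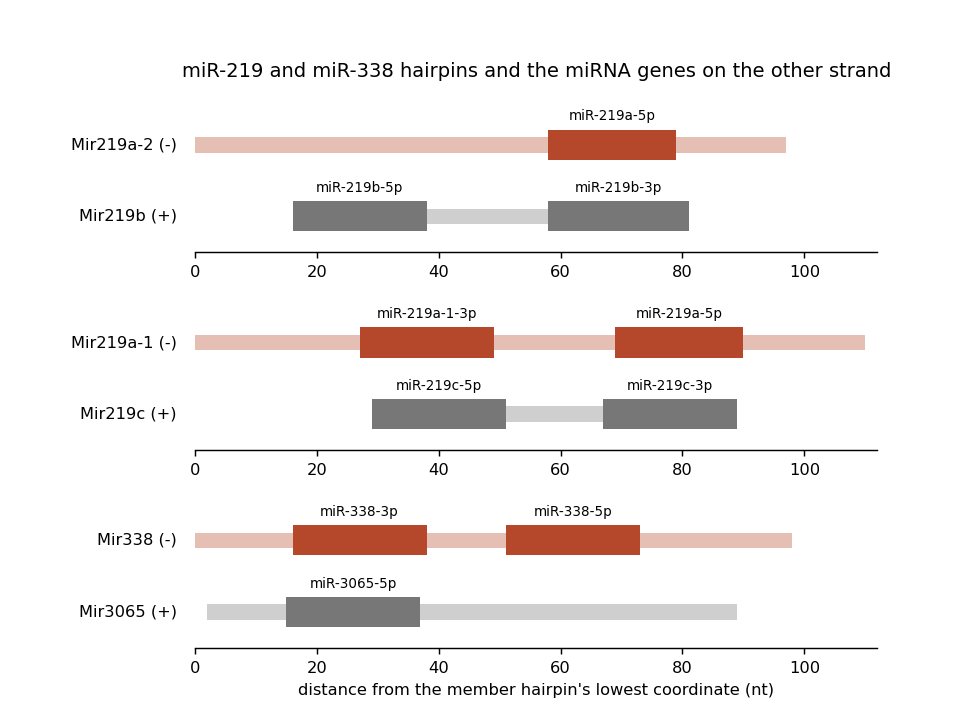
Map of the 3 loci in nucleotides from the lowest coordinate of the minus-strand hairpin, with pale bars for hairpins and solid bars for mature sequences in the RefSeq table. Red marks the minus-strand genes Mir219a-2, Mir219a-1 and Mir338, and grey the plus-strand genes Mir219b, Mir219c and Mir3065, which overlap them by 65, 60 and 87 nucleotides.

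The libraries differed in depth and in how reads were assigned, which bears on every value that follows. Replicate 1 had 3793934 counts on miRNA genes and replicate 2 had 2554997, which were 27.5% and 35.3% of their reads. Unmapped reads were 41.3% and 20.7%, and multimapping reads 26.3% and 37.5%. As a check of the tissue, a list of neuron miRNAs had 10 of 14 members detected, a call that needs 2 CPM in both libraries and that 19.3% of all genes met, and took 6.01% and 4.57% of counts. Undetected were Mir9-2 and all 3 genes of miR-124, a miRNA known as abundant in neurons. Mir124a-1 stood at 3.16 CPM in replicate 1 and 1.57 CPM in replicate 2, Mir124a-2 at 1.32 and 0.391 CPM, and Mir124a-3 at 0 and 1.57 CPM. The 3 hairpins share 24 or more windows of 20 nucleotides with each other, so their counts are uncertain too.

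Mir219a-2 led the group in both libraries. It had 11435 counts in replicate 1 and 1898 in replicate 2, which is 3014 CPM (95% Wilson interval 2959 to 3069) and 743 CPM (710 to 777). Such intervals take in counting error alone, and PCR copies of 1 molecule are not independent of each other. Its mean of 1878 ± 1606 CPM (SD, n = 2) placed it at rank 81 of 2202, between Mir138-2 at 1887 ± 24.4 CPM and Mir7b at 1827 ± 172 CPM, from both of which it differed by less than its own spread. Within a library its rank was 59 in replicate 1 and 119 in replicate 2.

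Mir338 had 3903 counts in replicate 1 and 1240 in replicate 2, or 1029 CPM (997 to 1061) and 485 CPM (459 to 513). Its mean was 757 ± 384 CPM (SD, n = 2), at rank 118, between Mir455 at 840 ± 563 CPM and Mir106b at 757 ± 166 CPM, again within the spread, and its rank was 110 in replicate 1 and 134 in replicate 2. Mir219a-1 had 64 and 49 counts in replicates 1 and 2, or 16.9 CPM (13.2 to 21.5) and 19.2 CPM (14.5 to 25.4). At a mean of 18.02 ± 1.63 CPM it stood at rank 291, beside Mir486 at 18.7 ± 8.20 CPM and Mir3068 at 17.8 ± 5.78 CPM, and it alone of the 3 had close values in the libraries.

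Mir219b had 0 counts in both libraries, which allows up to 0.791 CPM in replicate 1 and 1.17 CPM in replicate 2, from 3 counts of the total and for uniquely mapping reads only. Thus 3 of the 4 genes were detected, beside 19.3% of all 2202. The order Mir219a-2, Mir338, Mir219a-1, Mir219b was the same in the libraries. By the ranges of the libraries the levels of Mir219a-2 and Mir338 overlapped, while Mir219a-1 lay below both in each.

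**Figure D2:**
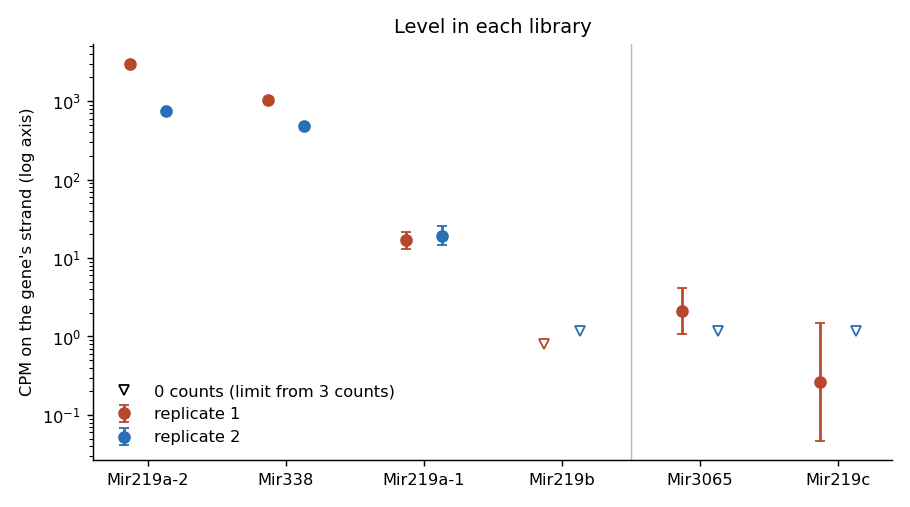
CPM on the strand of the gene (log axis) in replicates 1 and 2 for the 4 genes, left of the line, and for Mir3065 and Mir219c, right of it. Bars are 95% Wilson intervals for counting error, and open triangles mark the limit that 0 counts allow. Mir219a-2 and Mir338 stand higher in replicate 1, and Mir219a-1 at 16.9 and 19.2 CPM.

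Together the 4 genes held 15402 counts in replicate 1 and 3187 in replicate 2, which is 0.406% and 0.125% of counts. Mir219a-2 supplied 74.2% of those counts in replicate 1 and 59.6% in replicate 2. Set against Mir338 in the same library, which needs no scaling for depth, Mir219a-2 had 2.93-fold the counts in replicate 1 (95% exact interval 2.83 to 3.04). In replicate 2 it had 1.53-fold (1.42 to 1.65). The intervals do not overlap, so the ratio of these counts differed between the libraries by more than counting error. It is not a ratio of mature miRNAs, since multimapping reads, which can hold miR-219a-5p, were left out. Their share was 26.3% in replicate 1 and 37.5% in replicate 2. Mir338 shares no stretch of 20 nucleotides with a miRNA hairpin elsewhere. Against Mir219a-1 the 2 libraries gave 179-fold (140 to 232) and 38.7-fold (29.2 to 52.6) for Mir219a-2, and 61.0-fold (47.7 to 79.4) and 25.3-fold (19.0 to 34.4) for Mir338. The ratio of Mir219a-2 to Mir219a-1 leaves out reads of exactly miR-219a-5p at both genes. It does not show which of them supplied that arm.

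Uniquely mapping small RNA reads from the other strand were near 0. At the Mir219a-2 locus Mir219b had 0 counts beside 11435 in replicate 1 and 0 beside 1898 in replicate 2, which allows a share of up to 0.0262% and 0.158% of the locus. At the Mir338 locus Mir3065 had 8 counts beside 3903 in replicate 1 (0.205% of the locus) and 0 beside 1240 in replicate 2, where up to 0.242% was allowed. At the Mir219a-1 locus Mir219c had 1 count beside 64 in replicate 1 and 0 beside 49 in replicate 2. Nearly all reads of each gene overlapped its partner. Of the Mir219a-2 reads, 11435 of 11435 in replicate 1 and 1897 of 1898 in replicate 2 were also listed as opposite-strand reads of Mir219b, and for Mir338 and Mir219a-1 all were so listed of Mir3065 and Mir219c. The column that ignores strand gives such reads to no gene, and there Mir338 and Mir219a-1 had 0 counts and Mir219a-2 had 0 and 1.

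Between the libraries, Mir219a-2 was 4.06-fold higher in replicate 1 than in replicate 2 (95% exact interval 3.87 to 4.26), and Mir338 was 2.12-fold higher (1.99 to 2.26). Both passed a two-sided exact binomial test of the counts given the library totals, adjusted by Benjamini-Hochberg over all 507 genes with at least 10 counts. The adjusted p was 2.43e-130 for Mir338 and below the smallest value that double precision holds for Mir219a-2. Mir219a-1, at 0.880-fold (0.597 to 1.30), did not pass (adjusted p = 0.608 in the exact binomial test), and Mir219b could not be tested. So 2 of 3 tested genes passed, both higher in replicate 1. Of all tested genes 52.1% passed, 25.2% as higher in replicate 1 and 26.8% as higher in replicate 2. Among genes with at least 50 counts in sum, which all 3 had, 243 of 338 passed. The test is a contrast of 2 libraries of 1 group, not of conditions, and takes in counting error alone. In bulk tissue, fewer cells of a type and less RNA per cell cannot be told apart.

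On assigned totals the 2 ratios lay toward one end of their range over all genes. Of the 328 genes that averaged at least 10 CPM, 9 (2.74%) had a larger ratio toward replicate 1 than Mir219a-2 and 29 (8.84%) a larger one than Mir338. The median absolute log2 ratio of these genes was 0.42, against log2 ratios of 2.02 for Mir219a-2, 1.08 for Mir338 and -0.18 for Mir219a-1. Over 2-fold higher in replicate 1 were 10.4% of the 328 genes, Mir219a-2 and Mir338 among them, and over 2-fold higher in replicate 2 were 3.96%.

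A negative binomial exact test with the common dispersion of edgeR was run beside the binomial one. The dispersion, a coefficient of variation of 0.377, came from these same 2 libraries taken as replicates, so the difference tested is part of its own spread and few calls follow by construction. In this exact test Mir219a-2 had p = 0.0129 (adjusted p = 0.555) and Mir338 p = 0.172 (adjusted p = 1). Of all genes, 0.394% passed that test and 4.54% had an unadjusted p under 0.05. Scaled by all reads rather than by assigned counts, the log2 ratios were 1.66 for Mir219a-2, 0.72 for Mir338 and -0.50 for Mir219a-1, while the median over tested genes was -0.30 in place of 0.02. With that scaling 75 genes were higher in replicate 1 and 203 in replicate 2, where assigned totals gave 128 and 136.

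**Figure D3:**
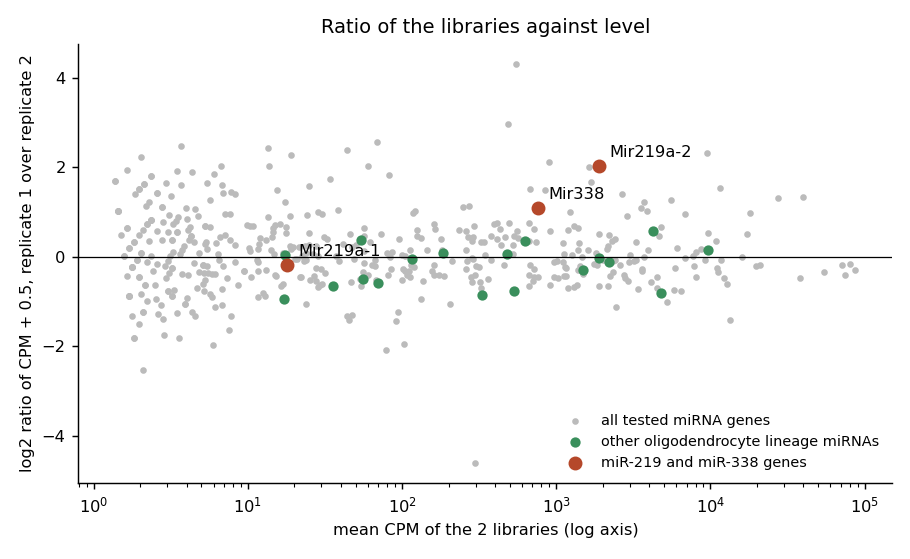
Log2 ratio of CPM + 0.5, replicate 1 over replicate 2, against mean CPM (log axis) for the 507 tested miRNA genes. Mir219a-2 at 2.02 and Mir338 at 1.08 lie on the upper side, Mir219a-1 at -0.18 lies near the line at 0, and the green points of other lineage miRNAs lie between -0.94 and 0.57.

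Other miRNAs known from the oligodendrocyte lineage were set beside the members, in a list of 21 genes. Of these, 12 share a stretch of 20 nucleotides with a miRNA gene elsewhere and are uncertain in the way Mir219a-2 is, among the genes named below Mir23a, Mir138-1, Mir138-2, Mir146, Mir92-1, Mir27a and the Mir7 and Mir9 genes. On the side of differentiation, all 6 listed genes were detected. Mir23a, which promotes oligodendrocyte differentiation by repressing lamin B1 in the mouse, stood at 3446 CPM in replicate 1 and 6053 CPM in replicate 2 (mean 4750 ± 1843, SD, n = 2). Mir138-1 and Mir138-2, which encode the miR-138 that rises with miR-219 and miR-338 in mouse oligodendrocytes and is also abundant in neurons, stood at 5090 and 3431 CPM and at 1870 and 1904 CPM in replicates 1 and 2. Of this side, 2 genes passed as higher in replicate 1, Mir138-1 at 1.48-fold and Mir146 at 1.28-fold, and 2 as lower there, Mir23a at 0.569-fold and Mir32 at 0.631-fold of the level in replicate 2. Mir138-2 and Mir184 did not pass.

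On the side of progenitors, 12 of 15 genes were detected. Mir125a, whose 3p arm slows maturation of rat progenitors, led at 10088 CPM in replicate 1 and 9138 CPM in replicate 2. Mir17 and Mir92-1, of the cluster that drives progenitor division in the mouse, followed at 2108 and 2302 CPM and at 1336 and 1652 CPM. Of 12 tested genes, 2 passed as higher in replicate 1, Mir125a at 1.10-fold and Mir27a at 1.30-fold, and 7 as lower there. Mir125a turned to the other direction when scaled by all reads. The 7 were Mir17, Mir92-1, Mir20a, Mir7-1, Mir7-2, Mir9-1 and Mir9-3, between 0.511-fold for Mir9-1 and 0.916-fold for Mir17 of their replicate 2 level. Mir19a had 0 counts in both libraries.

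Over both sides, 13 of 18 tested genes (72.2%) passed, beside 52.1% of all genes, 4 as higher in replicate 1 and 9 in replicate 2. Among genes with at least 50 counts in sum, 243 of 338 passed, and again 13 of 18 of the list. The share of the list was thus like that of genes with such counts. Scaled by all reads, 15 of the 18 passed, 1 as higher in replicate 1 and 14 in replicate 2. Of all 507 tested genes, 75 and 203 passed in these directions with that scaling. On assigned totals the median log2 ratio of the 18 listed genes was -0.09, beside 0.02 over all tested genes.

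**Figure D4:**
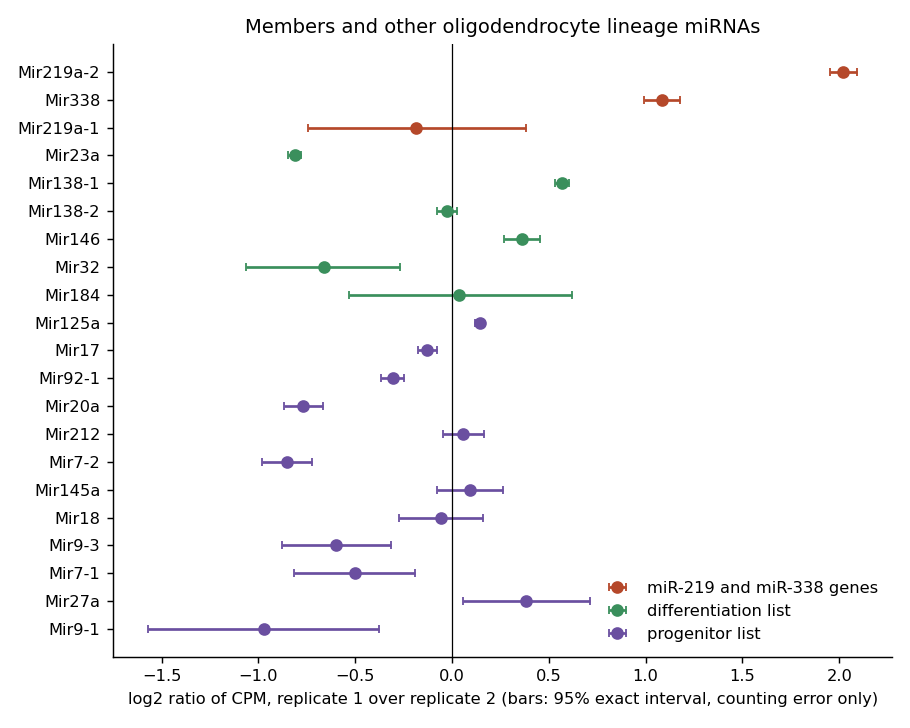
Log2 ratio of CPM, replicate 1 over replicate 2, for 3 genes of miR-219 and miR-338 and 18 other lineage genes, with 95% exact intervals for counting error. Mir219a-2 and Mir338 stand to the right of the listed genes, and the interval of Mir219a-1 spans 0.

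Marker miRNAs of some other cells moved with Mir219a-2 and Mir338, and their part in the difference was not tested. The astrocyte and glia list held 0.400% of counts in replicate 1 and 0.179% in replicate 2, with 4 of 6 genes passing as higher in replicate 1, beside 25.2% of all genes, and none at 0. Most of that gap came from Mir21a, at 1451 CPM in replicate 1 and 334 CPM in replicate 2, and Mir31, at 1037 and 52.1 CPM. Mir29a, the highest of the list by mean, stood at 1282 and 1254 CPM and did not pass. For choroid plexus and ciliated epithelium the shares were 0.198% and 0.0929%, with 3 of 4 passing as higher in replicate 1 and none at 0, and Mir34c, at 857 and 109 CPM, gave most of the gap. In the erythroid list, which summed to 0.00754% in replicate 1 and 0.0192% in replicate 2, the genes did not move together. Mir451a, at 41.9 and 162 CPM, and Mir144 passed as higher in replicate 2, while Mir486, at 24.5 and 12.9 CPM, passed as higher in replicate 1. The microglia and myeloid list held 0.178% and 0.170%, and the endothelial and mural list 1.43% and 1.11%. Within the neuron list 4 of 11 tested genes passed as higher in replicate 1 and 5 in replicate 2, beside 25.2% and 26.8% of all genes. Mir132, at 17266 CPM in replicate 1 and 5947 CPM in replicate 2, was 2.90-fold higher in replicate 1. No other gene of that list with a mean of at least 10 CPM was over 2-fold apart. Scaled by all reads, 75 of the 507 tested genes passed toward replicate 1 and 203 toward replicate 2. In the astrocyte and glia list 3 genes then passed toward replicate 1 and 1 toward replicate 2. The choroid plexus and ciliated epithelium list then had 2 and 0, and Mir204 turned to the other direction without passing. The neuron list had 3 toward replicate 1 and 7 toward replicate 2, and Mir330 turned to the other direction. In that scaling the microglia and myeloid list summed to 490 per 1000000 reads in replicate 1 and 599 in replicate 2, the other direction from its share of counts.

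**Figure D5:**
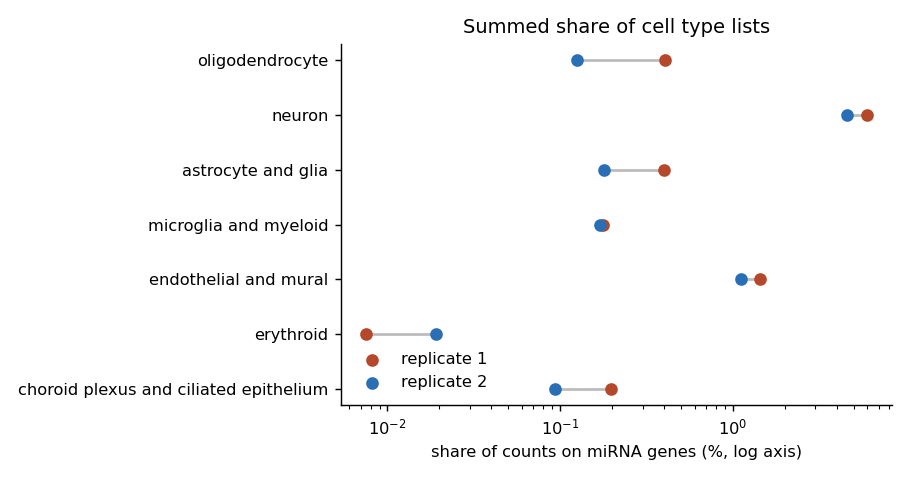
Share of counts on miRNA genes (%, log axis) summed over each cell type list in replicates 1 and 2. The oligodendrocyte list, of Mir219a-2, Mir338 and Mir219a-1, held 0.406% in replicate 1 and 0.125% in replicate 2. Every other list except the erythroid one was also higher in replicate 1. Among these the microglia and myeloid list was nearly level, at 0.178% and 0.170%.

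Among 208 other genes that averaged at least 100 CPM, those whose ratio of the libraries was most like that of Mir219a-2 were Mir222, Mir21a and Mir298, at distances of 0.006, 0.1 and 0.293 on the log2 scale. Mir222 stood at 2621 CPM in replicate 1 and 649 CPM in replicate 2. Nearest to Mir338 were Mir221, Mir669o and Mir34a, at distances of 0.001, 0.031 and 0.049, of which Mir669o shares stretches with other miRNA genes and is uncertain. Mir221 stood at 4788 and 2259 CPM in replicates 1 and 2. Likeness here rests on 2 libraries, so any gene with a like ratio qualifies.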

How the data were processed

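Small RNA reads of 2 libraries were analysed from the deposited tables, which hold raw read counts, not normalized, for each miRNA gene, on mm10 with GENCODE M21, per the file headers of the accompanying text. The aligner was not given in the sources used here, nor were counter, trimming and filters. For each library, the column of the gene's strand was taken by its position. Its total was 3793934 against 217918 for the opposite strand in replicate 1. In replicate 2 the totals were 2554997 and 153094. The 4 rows of unassigned reads stayed out of library sizes and tests. All 2202 identifiers matched GENCODE M21.

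CPM, exact binomial tests (at least 10 counts in sum, threshold 0.05) and log2(CPM + 0.5) ratios were computed with Python 3.11.15. Packages were scipy 1.17.1, numpy 2.4.6, pandas 2.3.3 and matplotlib 3.10.9. The test was checked on simulated counts with counting error only, so the check does not cover spread beyond it. edgeR 4.0.16 (R 4.3.3) gave TMM factors of 0.997 and 1.003 and the common dispersion, as its quasi-likelihood test needs residual degrees of freedom that single libraries lack. DESeq2 1.42.0 gave alternative size factors. In replicates 1 and 2, 1 count was worth 0.264 and 0.391 CPM.

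The genes, lists and tests were chosen with earlier results of these data known. The text names the members, their overlapping miRNA genes and rank neighbours, of each side of the lineage list the 3 highest and any over 2-fold apart, and the 3 genes of 100 CPM or more most like Mir219a-2 and Mir338. Other listed genes are named where a count needed it or where they carried a list's sum, chosen after their values were seen. Alternatives were other scalings, filters, pseudocounts, detection minimums, stretch lengths, the column without strand and single libraries. The scaling of cell type lists by all reads was added after seeing the data.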

Additional observations from a re-analysis of the deposited data

How the results depend on the processing

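Of the results, the levels of 3 genes moved most. In the column that ignores strand, Mir219a-2 was at 0.208 CPM and Mir338 and Mir219a-1 at 0, by its construction, since reads on overlapping miRNA genes go unassigned there. Per 1000000 of all reads, a larger denominator, Mir219a-2 was at 546, Mir338 at 227 and Mir219a-1 at 5.71. From single libraries, Mir219a-2 ranged from 743 to 3014 CPM, Mir338 from 485 to 1029 CPM, Mir219a-1 from 16.9 to 19.2 CPM and the ratio of Mir219a-2 to Mir338 from 1.53 to 2.93, while Mir219b stayed at 0. Under the negative binomial spread, which was estimated from the 2 libraries it then compared, the log2 ratios of 2.02 for Mir219a-2 and 1.08 for Mir338 no longer passed, the genes that differ between the libraries were 2 rather than 264, and those of the lineage list 0 rather than 13. Under other scalings, filters and pseudocounts both ratios kept their direction and passed. A ratio of the libraries without a replicate cannot be formed. With 1 group, no paired analysis was possible because no groups are compared.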

Other observations

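The members made up part of the reads that are lost when strand is ignored. In that column 217782 reads of replicate 1 and 153023 of replicate 2 were listed as ambiguous between genes. The counts that the 4 genes had on their own strand and lost there were 15402 in replicate 1 and 3186 in replicate 2, equal to 7.07% and 2.08% of those reads.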
